A study of Mus musculus with 4 samples.

Results

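The ETS family transcription factors that act in myeloid cells were followed in splenic cDC2 from wild-type (WT) mice and from mice labelled as Id2 knockouts (Id2 KO). The set held 10 genes, Spi1, Spic, Ets1, Ets2, Fli1, Elf1, Elf4, Etv3, Etv6 and Gabpa, listed by symbol, with no measured value in the rule. Each was read from the brightest probe set annotated to that symbol alone, and all 10 were found among the 19938 genes with such a probe set. All 10 also lay above the intensity filter, among 11963 genes that were tested.

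The groups were 2 arrays labelled WT and 2 labelled Id2 KO (called WT arrays and KO arrays below, by their labels only), each hybridised with RNA of cDC2 sorted from spleen. Both groups came from chimeric mice that carried Zbtb46-GFP, a green fluorescent reporter of Zbtb46, which marks conventional dendritic cells, and the groups differed by the Id2 knockout. The age of the mice, the share of host cells left in the chimeras, the part of Id2 that was deleted and whether an array stands for 1 mouse or a pool were not given in the sources used here. Nothing in the labels ties the replicates to separate animals, so a p-value here measures the spread between samples alone, and that spread may be technical.

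ETS factors share a DNA-binding domain that recognises a short purine core, GGAA, and differ in the bases around it and in their partners. PU.1, encoded by Spi1, is the ETS factor that myeloid cells and dendritic cells need for their development, and it binds many sites together with Irf4 or Irf8. Id2 lacks a DNA-binding region and keeps E proteins, a different class of factors, from DNA. The comparison asks how far the RNA of the ETS factors differed between cDC2 with these genotype labels.

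Several other genes differed between the same arrays. Id2 itself was at log2 intensity 9.14 and 9.08 on the WT arrays and 8.71 and 8.97 on the KO arrays. This difference of -0.27 was not past the threshold (adjusted p = 0.172 by limma), so its probe set does not settle the genotype labels and may lie outside the deleted part. Xist was 11.96 in both WT arrays and 6.67 and 6.68 in the others, and the Y-linked gene Kdm5d was 5.72 and 5.53 against 8.08 and 8.50, so genotype and these sex-linked levels cannot be told apart. Among the cDC2 markers, Sirpa was between 12.14 and 12.41 and Itgax between 12.81 and 12.86 on the 4 arrays, and of 9 tested cDC2 markers 3 were lower on the KO arrays (Itgam, Cd4 and Zbtb46) and 1 higher (Esam). Of tested markers of other cells, 12 of 12 for neutrophils and 5 of 6 for red pulp macrophages were lower on the KO arrays. Also lower were 4 of 4 for erythroid cells, 3 of 4 for monocytes and 1 of 4 for cDC1. Of T and natural killer (NK) cell markers 1 of 6 was lower. Higher were 8 of 8 markers of B cells, 3 of 6 of plasmacytoid dendritic cells and 13 of 13 cell cycle genes. Of all tested genes 5.53% were higher and 2.52% lower. Some of these passed the filter only through the group where they were high. They were Zbtb46 and 4 of the 12 neutrophil markers (Mmp8, Cxcr2, Mpo and Prtn3). Epb42 of the erythroid, Chil3 of the monocyte and 2 of the 8 B cell markers (Fcer2a and Cr2) were others. The counts therefore describe the arrays and support no other result. In RNA from a sorted bulk sample, fewer cells of a type and less RNA per cell cannot be told apart.

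RefSeq promoter windows, from 250 bases before to 50 bases after a start site on GRCm38.p6, were at hand for 7 of the 10 genes, 9 windows in all. Those of Gabpa and Etv3 are shown because these genes had the smallest p-values of the 10 before adjustment and because their windows hold the bases that ETS factors read. Capitals mark GGAAG, the core with 1 more base, or its reverse complement CTTCC. The Gabpa window lies at chr16:84834874-84835173 and the Etv3 window at chr3:87525328-87525627, both on the plus strand and written 5′ to 3′.
Gabpa: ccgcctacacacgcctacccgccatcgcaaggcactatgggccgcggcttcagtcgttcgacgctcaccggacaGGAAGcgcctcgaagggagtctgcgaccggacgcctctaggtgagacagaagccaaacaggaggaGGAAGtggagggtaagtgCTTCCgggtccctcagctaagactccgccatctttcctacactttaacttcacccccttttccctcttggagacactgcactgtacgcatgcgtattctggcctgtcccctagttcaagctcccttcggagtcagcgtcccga
Etv3: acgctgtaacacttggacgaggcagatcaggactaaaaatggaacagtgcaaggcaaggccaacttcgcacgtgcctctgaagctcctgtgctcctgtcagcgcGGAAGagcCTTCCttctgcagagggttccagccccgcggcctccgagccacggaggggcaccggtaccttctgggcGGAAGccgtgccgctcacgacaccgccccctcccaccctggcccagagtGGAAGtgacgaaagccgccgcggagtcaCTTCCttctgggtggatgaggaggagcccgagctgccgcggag
Gabpa's window held 3 such matches and Etv3's 5. The pentamer is common, with a match on either strand in 71.4% of all 32851 promoter windows of 300 bases and in 7 of the 9 windows here, those of Spic, Elf1, Elf4, Etv3, Etv6 and Gabpa among them. Longer forms were rarer. GAGGAAG, a PU.1-type site that contains the pentamer, was in 13.6% of all windows, and CCGGAAG, the form that GABP prefers, was in 8.86%, and of the 9 windows Gabpa's alone held either, with 1 match each. An E protein site of the form CAGNTG was found in 51.4% of all windows and in 2 of the 9, 1 of Elf1 and 1 of Elf4. These matches describe sequence and not binding.

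None of the 10 ETS genes passed the test between the groups (limma with Benjamini-Hochberg adjustment over 11963 genes, threshold 0.05; adjusted p from 0.0672 to 0.904). Of all tested genes 8.04% passed, 5.53% higher and 2.52% lower, so a set of 10 with none called is close to that background. Before adjustment 3 of the 10, Gabpa, Etv3 and Ets2, had a p under 0.05, where 20.7% of all tested genes did. The differences, Id2 KO minus WT, ran from -0.35 for Ets2 to 0.30 for Gabpa on the log2 scale, 6 positive and 4 negative, with a median of 0.08 against 0.01 over all tested genes. The outermost ends of the 95% intervals, -0.67 and 0.49, correspond to 1.59-fold lower and 1.40-fold higher, and no unadjusted interval reached beyond them.

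**Figure D1:**
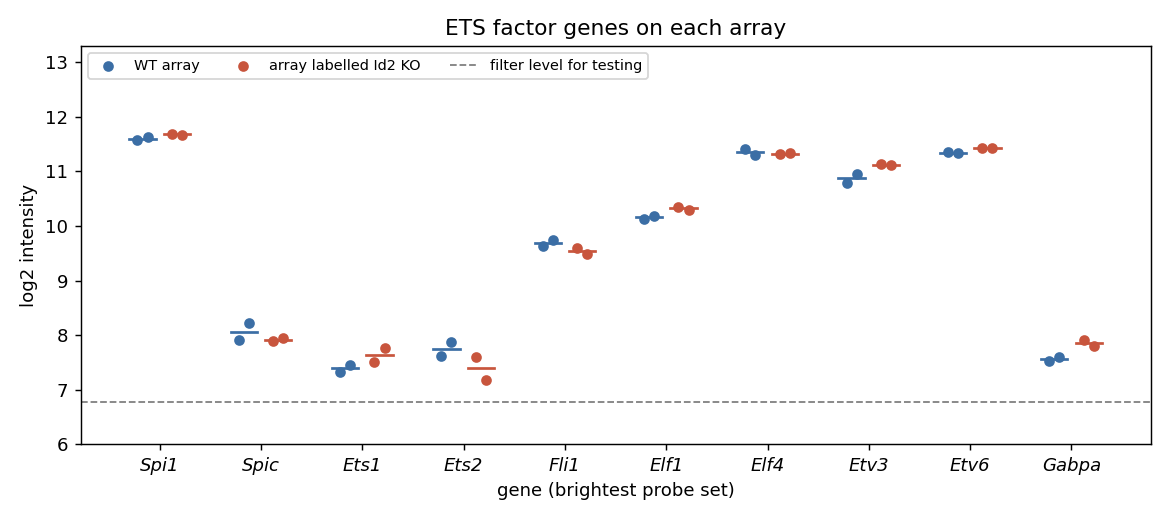
Log2 intensity of the 10 ETS genes (x axis, brightest probe set) on each WT array (blue) and each array labelled Id2 KO (red); points are arrays, short lines are group means of 2 arrays, and the dashed line is the filter level of 6.77. The points of a gene lie close together in both groups, and the points of Ets2 spread most, by 0.42 between the KO arrays.

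The PU.1 branch comes first. Spi1, the gene of PU.1 on chromosome 2 (probe set 10473809), was at 11.58 and 11.63 in WT and at 11.69 and 11.66 on the KO arrays. The 4 values lie close together, and the groups did not overlap by a distance of 0.03. The difference was 0.07 (95% interval -0.11 to 0.25, adjusted p = 0.674), or 0.05 without WT replicate 1. Spic encodes Spi-C, a relative of PU.1 that red pulp macrophages of the spleen need and that haem induces in monocytes. On chromosome 10 (probe set 10371662), it was at 7.91 and 8.22 in WT and at 7.89 and 7.94 on the KO arrays. The higher WT array stood apart from the other 3 arrays, and the groups overlapped, with the lower WT value between the KO values. The difference was -0.15 (-0.39 to 0.10, adjusted p = 0.514), and without WT replicate 2 it was 0.01, so its sign rests on that array.

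Among the founding ETS genes, Ets1, best known from T, B and natural killer cells, was higher on both KO arrays without passing the test. On chromosome 9 (probe set 10584142), it was at 7.33 and 7.46 in WT and at 7.50 and 7.77 on the KO arrays. Both of the latter were above both WT values, the nearest by 0.04, and the difference was 0.24 (-0.0005 to 0.48, adjusted p = 0.243). It was 0.10 without KO replicate 2 and 0.37 without KO replicate 1, and passed in neither. In the same arrays 1 of 6 tested T and NK cell markers was lower and none higher (all tested genes: 2.52% lower, 5.53% higher). The summed intensity of the 9 measured T and NK cell markers was 1699 in each WT array and 1643 and 1656 in the others. The summed intensity of 9 measured B cell markers was 1253 and 1242 in WT and 2551 and 2909 on the KO arrays, and the part of B cell RNA in the Ets1 value was not tested.

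Ets2, a target of Ras and MAP kinase signalling that activates inflammatory genes in macrophages, had the largest difference of the 10. On chromosome 16 (probe set 10437160), it was at 7.61 and 7.88 in WT and at 7.61 and 7.18 on the KO arrays. The groups were separated by less than 0.01, and KO replicate 2 was the lowest array. The difference was -0.35 (-0.67 to -0.03, adjusted p = 0.208). Without KO replicate 1 it was -0.56 and passed (adjusted p = 0.0218), without KO replicate 2 it was -0.14 (adjusted p = 0.568) and without WT replicate 2 it was -0.22, so the call depended on which of the arrays was kept. Fli1, a factor of blood stem cells and megakaryocytes and a neighbour of Ets1 on chromosome 9 (probe set 10592067), was at 9.63 and 9.75 in WT and at 9.60 and 9.48 on the KO arrays. These values did not overlap, by 0.03, and the difference was -0.15 (-0.35 to 0.05, adjusted p = 0.400), or -0.09 without WT replicate 2 or KO replicate 2. The neighbours Ets1 and Fli1 thus had differences of opposite sign, neither of which passed.

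Neither of the ELF genes passed. Elf1 encodes a factor that is active in lymphoid and myeloid cells and binds the promoters of many genes of blood cells. On chromosome 14 (probe set 10416657), it was at 10.13 and 10.18 in WT and at 10.34 and 10.30 on the KO arrays. The distance between the groups, 0.12, exceeded the gap between replicates, which was under 0.05 in both groups. The difference of 0.16 (-0.02 to 0.34) did not pass (adjusted p = 0.287). Elf4, also called MEF, promotes interferon and perforin expression. This X-linked gene (probe set 10604393) was at 11.41 and 11.30 in WT and at 11.32 and 11.34 on the KO arrays. The groups overlapped, and the difference of -0.03 (-0.21 to 0.16, adjusted p = 0.904) was the smallest of the 10. A dimmer Elf4 probe set (10604403) below the filter level was at 6.44 and 6.45 in WT and at 6.61 and 6.46, with all values within 0.2 of each other. With the mean of both probe sets the Elf4 difference was 0.03.

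Among the ETS repressors, neither Etv3 nor Etv6 passed. Etv3, also called METS, slows the proliferation of macrophages during their differentiation and is associated with dendritic cell differentiation of monocytes. On chromosome 3 (probe set 10492997), it was at 10.80 and 10.95 in WT and at 11.13 and 11.11 on the KO arrays. Both of the latter were above both WT values, by at least 0.16, and the difference was 0.25 (0.05 to 0.45, adjusted p = 0.133). In these arrays 13 of 13 tested cell cycle genes were higher, among them Mki67 by 1.28, where 5.53% of all tested genes were. A link of Etv3 to these genes was not tested. Etv6, also called TEL, is a repressor that blood stem cells need in the bone marrow and that is fused to other genes in leukaemias. On chromosome 6 (probe set 10542275), it was at 11.35 and 11.34 in WT and at 11.43 and 11.42 on the KO arrays. It had the tightest replicates of the set, with a gap of 0.01 in each group, and its difference of 0.09 (-0.09 to 0.26, adjusted p = 0.609) did not pass against a moderated standard error of 0.08.

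Gabpa, whose promoter window is shown above, encodes the DNA-binding subunit of GABP, a factor of mitochondrial and housekeeping genes that also acts in blood stem cells. On chromosome 16 (probe set 10436678), it was at 7.52 and 7.59 in WT and at 7.91 and 7.81 on the KO arrays. Both of the latter were higher than both WT values, by at least 0.21, the widest separation of the 10. The difference was 0.30 (0.11 to 0.49, 1.23-fold) with the lowest adjusted p of the set, 0.0672. Over 14 alternatives it ran from 0.24 to 0.35. Gabpa passed under 1 of them, a replicate block with the KO array numbers exchanged (adjusted p = 0.0379). The genes of its partner subunits, Gabpb1 at 0.34 (adjusted p = 0.0686) and Gabpb2 at 0.32 (adjusted p = 0.0532), were not called either. Each passed under 2 of 14 alternatives, among them Gabpb1 without KO replicate 2 (adjusted p from 0.0181 to 0.299 over its alternatives) and Gabpb2 among genes above the 60th percentile (0.0348 to 0.360). All 3 subunit genes were higher on both KO arrays than on both WT arrays, as were 27.9% of all tested genes.

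The groups did not overlap for 8 of the 10 genes, 6 higher (Spi1, Ets1, Elf1, Etv3, Etv6 and Gabpa) and 2 lower (Ets2 and Fli1) on the KO arrays. Over all tested genes the groups did not overlap for 50.7%, with 27.9% higher and 22.8% lower. No test was made of this count, and levels of different probe sets were not ranked against each other.

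**Figure D2:**
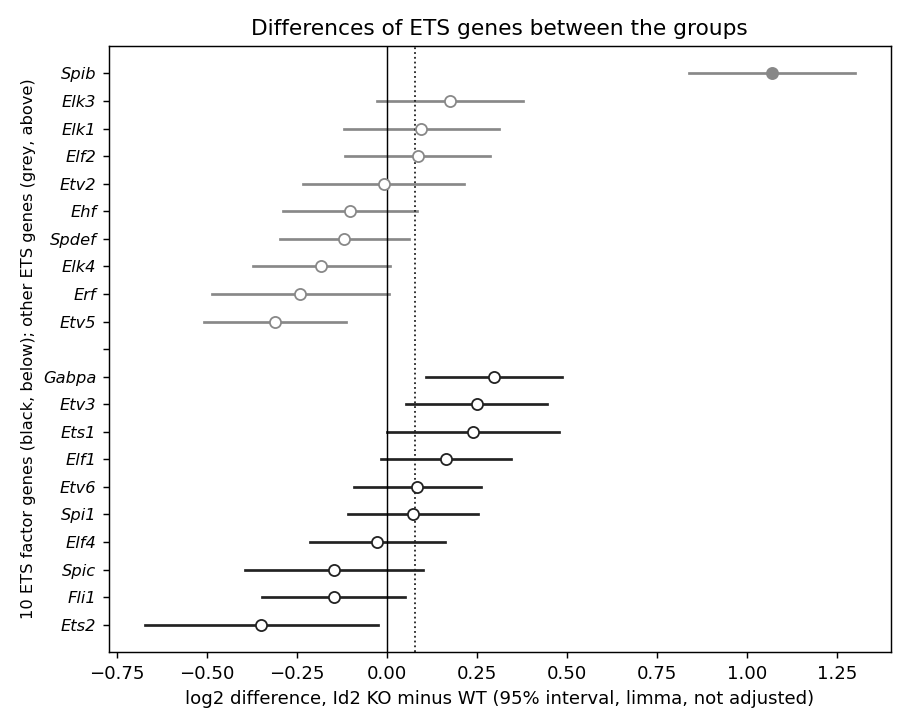
Log2 difference, Id2 KO minus WT (x axis), with limma's 95% interval before adjustment, for the 10 ETS genes (black, lower block) and the 10 other tested ETS genes (grey, upper block); a filled point passed the test and the dotted line is the median of the 10, 0.08. Spib at 1.07 is the single filled point, and every interval of the 10 lies between -0.67 and 0.49.

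The rest of the family held 16 further ETS genes, of which 15 were measured and 10 tested. Of these 10, 1 rose, none fell and 9 did not pass, a share close to the 8.04% called over all tested genes, with a median difference of -0.06. The gene that rose was Spib, which encodes Spi-B, a relative of PU.1 in B cells and plasmacytoid dendritic cells. Spib was at 7.12 and 7.06 in WT and at 8.03 and 8.30 on the KO arrays. Both of the latter were higher by at least 0.91, the difference was 1.07 (0.84 to 1.30; 2.10-fold, adjusted p = 3.12e-04), and the call was kept with each array left out and under every alternative that tested the gene. For 9 measured B cell markers the summed intensity was 1253 and 1242 in WT and 2551 and 2909 on the KO arrays. For 6 measured markers of plasmacytoid dendritic cells it was 2227 and 2189 against 2630 and 2375. The part of these cells in the Spib value was not tested. The next largest differences were those of Etv5, a gene downstream of receptor tyrosine kinases, at -0.31 (adjusted p = 0.0681), Erf, a repressor controlled by ERK, at -0.24 (adjusted p = 0.254), and Elk4, a partner of serum response factor, at -0.18 (adjusted p = 0.264). Etv5 passed under 3 of its 14 alternatives, 2 of them scalings of the arrays, with an adjusted p down to 0.0257.

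Of 18 partners and antagonists of ETS factors, all tested, 2 rose, 2 fell and 14 did not pass (all tested genes: 5.53% higher, 2.52% lower), with a median difference of -0.02. Runx1, a factor that binds beside PU.1 and Ets1, rose from 9.37 and 9.41 to 9.83 and 9.77, a difference of 0.41 (0.23 to 0.59, adjusted p = 0.0143), with the call lost without WT replicate 1, WT replicate 2 or KO replicate 1. Pax5, the B cell commitment factor that recruits Ets1, rose by 1.27 (adjusted p = 7.64e-05) and is itself among the B cell markers. Jun, a coactivator of PU.1, fell by 0.36 (adjusted p = 0.0333) and Gata1, the erythroid antagonist of PU.1, fell by 0.31 (adjusted p = 0.0469). For 5 measured erythroid markers the summed intensity was 1324 and 1614 in WT and 679 and 724 on the KO arrays. Their part in the Gata1 value was not tested. The call of Jun was lost under 7 of 14 alternatives, among them both WT arrays and KO replicate 1 left out in turn and renewed quantile normalization, and that of Gata1 under 8 of the 12 that tested it, among them each array left out. The partners of PU.1 in dendritic cells, Irf8 at 0.14 (adjusted p = 0.409) and Irf4, whose difference was -0.18 (adjusted p = 0.408), were not called, and nor was Cebpa at 0.02 (adjusted p = 0.914).

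Genes known as PU.1 targets were described beside Spi1. This list, like the other lists, was chosen with earlier results of these data known. Its counts beside those of all genes are therefore descriptive, and nothing is inferred from how far they exceed the share over all genes. Of 28 listed, 26 were measured and 23 tested, of which 2 rose, 7 fell and 14 did not pass (all tested genes: 5.53% higher, 2.52% lower), with a median difference of -0.06. Those that fell were Mpeg1, which encodes the pore-forming perforin-2 (-1.93, adjusted p = 6.47e-06), the integrin gene Itgam (-0.998), the Fc receptor gene Fcgr3 (-0.98), the lipopolysaccharide coreceptor gene Cd14 (-0.88), the lysozyme gene Lyz2 (-0.72), the Toll-like receptor gene Tlr2 (-0.59) and the oxidase subunit gene Ncf4 (-0.38). The G-CSF receptor gene Csf3r (0.82) and the interleukin 7 receptor gene Il7r (0.49) rose. Among those that did not pass, chosen for naming after their values were seen, were the M-CSF receptor gene Csf1r at 0.04 (adjusted p = 0.865), the integrin gene Itgax at -0.01 (adjusted p = 0.953), Ptprc, the gene of CD45, at 0.03 (adjusted p = 0.899) and Ciita, the transactivator of MHC class II, at 0.04 (adjusted p = 0.853). Several of the genes that fell are also made by neutrophils, monocytes and macrophages. The summed intensity of 12 neutrophil markers was 17984 and 18664 in WT and 1563 and 2476 on the KO arrays. For 7 measured monocyte markers it was 3007 and 3143 against 2297 and 2510. The monocyte markers include Cd14, Lyz2, Csf1r and Fcgr1 of the PU.1 targets, so that sum is not separate from these falls. The part of these cells in the falls, or in the rise of Csf3r, was not tested. The calls of Tlr2 and Ncf4 were lost without either WT array, that of Ncf4 also without either KO array, and that of Il7r without WT replicate 1, without KO replicate 2 and with renewed quantile normalization.

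Genes linked to Spic in iron recycling and red pulp macrophages were lower in part. Of 8 listed 6 were tested, of which none rose and 3 fell (2.52% of all tested genes fell), with a median difference of -0.39. They were the iron exporter gene Slc40a1 (-1.19, adjusted p = 0.00267), the adhesion gene Vcam1 (-0.48, adjusted p = 0.0128) and Adgre1, a macrophage surface marker (-0.34, adjusted p = 0.0317). The haem oxygenase gene Hmox1, at -0.44, missed the threshold (adjusted p = 0.0511) but passed under 7 of the 13 alternatives that tested it (adjusted p from 0.0161 to 0.252), and Bach1, the repressor of Spic that haem removes, was at -0.04 (adjusted p = 0.855). Slc40a1 had WT values of 7.09 and 7.68 and values of 6.30 and 6.09 on the KO arrays. The latter lie under the level of the filter, so Slc40a1 was tested only because of its WT level. The size of its fall is unsettled, and its place in the count of 3 supports no other result. The summed intensity of 9 red pulp macrophage markers, of which this list holds 5, was 3074 and 3327 in WT and 2242 and 2263 in the others, and their part was not tested. The call of Vcam1 was lost without WT replicate 2 and that of Adgre1 without either WT array or KO replicate 1 and with median-centred arrays.

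For GABP the genes were few. Of 7 known target genes, all tested, 1 rose and none fell (5.53% of all tested genes rose). The median difference was 0.18, and 6 of 7 differences were positive, as were 52.1% of those of all tested genes. Tfam, which packages mitochondrial DNA, rose from 6.95 and 6.95 to 7.46 and 7.22 (0.40, adjusted p = 0.0401), a call lost without WT replicate 1, WT replicate 2 or KO replicate 1 and under 6 of the 13 alternatives that tested it. The mitochondrial transcription gene Tfb1m at 0.26 (adjusted p = 0.219), the respiration regulator gene Nrf1 at 0.20 (adjusted p = 0.259) and the respiratory chain gene Cox5b at 0.18 (adjusted p = 0.332) did not pass.

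**Figure D3:**
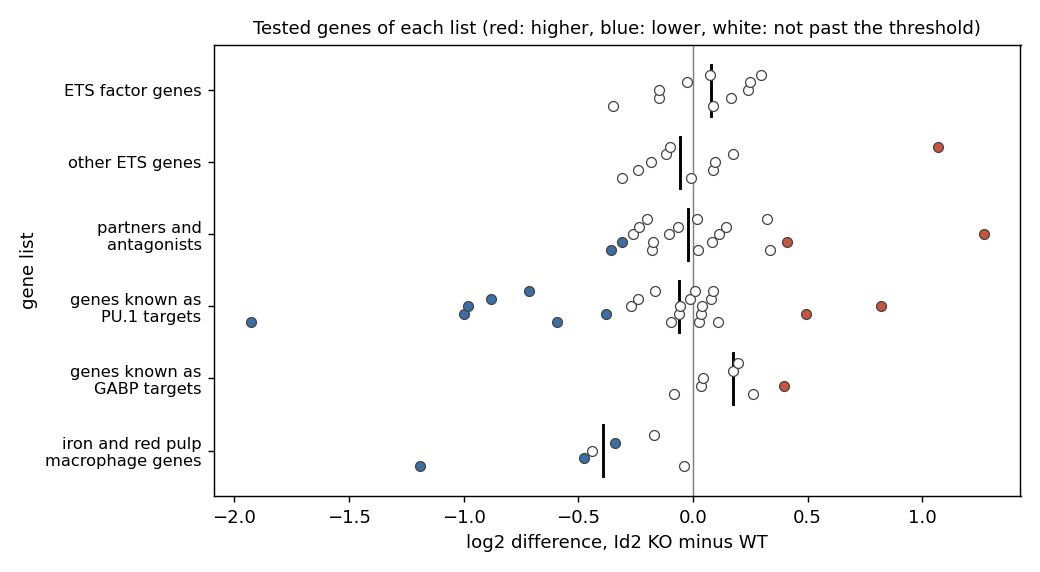
Log2 difference, Id2 KO minus WT (x axis), of the tested genes of each list (y axis); each point is a gene, red points are higher and blue points lower past the threshold, white points did not pass, and black bars are list medians. The 10 ETS factor genes have no coloured point, and 9 of the 23 tested PU.1 targets are coloured, from Mpeg1 at -1.93 to Csf3r at 0.82. Of all tested genes 8.04% passed, and the lists were chosen with earlier results of these data known.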

How the data were processed

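RNA of sorted splenic cDC2 was amplified with a NuGen Ovation PicoSL system and hybridised on Affymetrix arrays, 1 per sample, per the labels' protocols. The deposited intensity values, 1 per probe set on a linear scale from 5.19 to 18624, were made by the authors with Affymetrix Expression Console and RMA, per the submitters' processing notes, which give no version or role. RMA subtracts a modelled background and equalises the arrays, so a shift in total RNA is largely removed. A genome build is not given in the sources used here.

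The log2 was taken with no pseudocount. Of 28853 probe sets, 21789 carried 1 gene symbol, updated through a GRCm38.p6 gene table where 21698 matched. The brightest stood for each of 19938 genes, and the 11963 with a mean above the 40th percentile (log2 6.77) were tested by limma (version 3.58.1, R 4.3.3), with eBayes moderation of lmFit (two-sided, Benjamini-Hochberg, threshold 0.05). Residual degrees of freedom were 2, and the moderation added 6.77. The procedure was tested on simulated data, where it recovered 9% of changes of 1.25-fold and 85.6% of those of 1.5-fold. The number of arrays limits the precision. No background was measured, so dim genes have uncertain sizes.

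The members and all gene lists were chosen with earlier results of these data known. Named genes were every member and, per other list, those past the threshold and up to 4 with the largest difference. Genes near 0 and those named for their role as partners were added after their values were seen. With arrays numbered 1 and 2 in both groups, same-numbered deviations correlated at -0.144, so the numbers were not taken as pairs. Alternatives changed the scaling, filter, probe set rule, prior, replicate block, sex-linked genes and arrays used.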

Additional observations from a re-analysis of the deposited data

How the results depend on the processing

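Over 14 alternatives (13 for Elf4, Ets1 and Ets2), 131 of 137 values for single ETS genes kept their direction and their side of the threshold. Elf4 turned to 0.0329 with the mean of its probe sets and, with single arrays left out, ran from -0.0828 to 0.0303 (without WT replicate 1), and Spic ran from -0.3024 to 0.0104 (without WT replicate 2). Apart from the crossed numbers below, the single call of an ETS gene was that of Ets2, lower without KO replicate 1, so the count lower ran from 0 to 1 with single arrays left out. The median difference of the set ran from 0.03 to 0.10. Changed genes over all tested genes ran from 459 without WT replicate 1 and 627 without WT replicate 2 to 1171 without KO replicate 2, against 962. Centring on the median of the tested genes, chosen after seeing the data, gave 573 higher and 470 lower (54.9% higher, against 68.7% with 661 and 301) and no ETS gene called. With the replicate block 684 genes changed, among them 0 ETS genes. With the numbers crossed, also chosen after seeing the data, 1380 genes changed, with 1 ETS gene higher (Gabpa) and 1 lower (Ets2). The cause of these shifts was not tested. Dim levels, as of Ets1, Ets2 and Gabpa near the filter level of 6.77, have no measured background beside them.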
